A study of Drosophila melanogaster with 24 samples.

Results

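In the fly head a small set of genes had an mRNA peak around dusk in every one of 4 daily series, wild-type and mutant alike. Each series is 1 genotype and 1 replicate number sampled at 6 times. A gene was taken as a member where its mean level was at least 5 CPM (counts scaled to the library total) and where a cosine with a period of 24 h, fitted to log2(CPM + 1), had an amplitude of at least 0.4 and a peak from ZT9 to under ZT17 in all 4 series. ZT, zeitgeber time, counts hours from lights on. The known clock genes cwo, per, tim and vri and CG31324, the fly ortholog of the mammalian CLOCK-interacting protein CIPC, were left out by name, as were 5 gene names that a spreadsheet program had turned into dates. The rule selected 24 genes of the 16727 in the gene table, of which 8529 reached the CPM minimum. Since the members were chosen by amplitude and peak time, both are given below as descriptions with no test.

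The flies were Drosophila melanogaster of the strain w1118, labelled as wild type and as the control of the mutant, and flies carrying the allele cwo5073. Both genotypes were held in cycles of 12 h of light and 12 h of darkness at 25 °C for 3 days and heads were collected on day 4 at ZT2, ZT6, ZT10, ZT14, ZT18 and ZT22. The sample titles give these 6 times, whereas the treatment text names ZT2 and ZT14 alone; the titles were followed. Each of the 12 groups of genotype and time has 2 replicates, 24 libraries in all. The labels give neither sex, age nor the number of heads per sample. Nothing states that replicates came from separate cultures, so a p-value here reflects only how far these samples spread, which may be technical. In whole heads a change in level per cell cannot be told apart from a change in the number of cells that express a gene.

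In the Drosophila clock the transcription factors CLOCK and CYCLE bind E-box elements and activate their targets during the day, so that many direct targets, among them per, tim, vri and Pdp1, reach their highest mRNA level around dusk. PER and TIM proteins then accumulate and repress CLOCK and CYCLE through the night. CLOCKWORK ORANGE (CWO), the product of cwo, is a basic helix-loop-helix orange repressor that binds E-boxes and is itself a target of CLOCK and CYCLE. Dusk is thus the known phase of this arm of the clock in the head.

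Libraries held 11322400 to 19642411 counts. The cwo mRNA was present in both genotypes and stood at 43.9 to 177 CPM in wild-type and at 248 to 867 CPM in mutant libraries, with no overlap, so its level does not show a loss of transcript in the libraries labelled cwo5073. Genes that mark photoreceptors, a cell type of the head, summed to 57410 to 110800 CPM per library. A pair of wild-type libraries stood apart: the median log2 deviation of long abundant transcripts minus that of short ones, here called the length score, was -1.06 in wild-type ZT22 replicate 1 and -0.92 in wild-type ZT2 replicate 2, against -0.48 to 0.25 in the other wild-type and -0.29 to 0.60 in the mutant libraries. The ZT2 library also had the lowest median rank correlation with the other libraries, 0.808. Both fall at times when dusk genes are low, and values with and without them are given where they matter.

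The number of genes that met the rule within 1 series moved with single libraries. In wild-type replicate 1, 397 genes met the amplitude and window, and in wild-type replicate 2, 2394 genes did, which fell to 313 when the ZT2 library of that series was left out. The mutant series had 136 and 133 such genes. The requirement was met in both wild-type series by 296 genes and in both mutant series by 55, and without the pair of wild-type libraries low for long transcripts the wild-type number was 63. Of the 24 members, 19 still met the rule without that pair. The exceptions were Exn, Gp210, Prx2540-1, CG2121 and CG7365, which then missed the amplitude or the window in a wild-type series. By the same rule with a window from ZT21 to under ZT5, 21 genes peaked at dawn.

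All 24 members are protein-coding genes in RefSeq. They lay on all major chromosome arms, with 11 on 2R, 5 on 3L, 3 each on 2L and X, and 2 on 3R. Their mean level ran from 5.37 CPM for CG12896 to 430 CPM for CG45093, with a median of 40.4 CPM. Some are not independent of a neighbour. Prx2540-2, Prx2540-1 and CG12896 are adjacent near-identical peroxiredoxin genes on 2R between 10418718 and 10427915 (dm6), where reads may be divided between copies. CG45093 shares its strand and its whole span (2R, 7737019 to 7782637) with CG30497, and cyr overlaps CG10958 and CG2116 on the opposite strand. The kit was directional, but no source states whether strand was used in counting, so the levels of these genes are uncertain.

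The gene with the largest swing was cyr (cyrano, X, 8121280 to 8135713), which encodes a zona pellucida domain protein. From ZT2 to ZT22 it stood at 1.41, 4.79, 16.3, 29.3, 22.2 and 3.16 CPM in wild-type replicate 1 and at 1.63, 3.88, 14.6, 32.9, 21.6 and 3.33 CPM in replicate 2. Mutant replicate 1 gave 1.71, 3.92, 11.2, 17.6, 14.0 and 5.56 CPM at the same times, and mutant replicate 2 gave 1.92, 4.47, 13.9, 21.6, 19.5 and 5.48 CPM. The libraries from ZT10 to ZT18 all lay above those from ZT22 to ZT6 in both genotypes, and at ZT14 both mutant libraries lay below both wild-type ones. The log2 amplitude was 1.89 and 1.91 in the wild-type and 1.36 and 1.52 in the mutant series, and the 4 fitted peaks fell between ZT13.97 and ZT14.58.

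A pair of ubiquitin-pathway genes followed. Ubpy, listed as Usp8 in RefSeq (3R, 21134262 to 21138214), is a deubiquitinase reported in flies to act on the CLOCK protein. Wild-type replicate 1 held 67.7, 106, 267, 343, 177 and 57.6 CPM of Ubpy from ZT2 to ZT22, and replicate 2 held 28.2, 114, 458, 378, 261 and 80.4 CPM. Mutant libraries held 68.9, 163, 316, 224, 115 and 66.5 CPM in replicate 1 and 77.4, 177, 352, 217, 104 and 59.6 CPM in replicate 2. Mutant levels were above both wild-type libraries at ZT2 and ZT6 and below both at ZT14 and ZT18. Its fitted peak came at ZT12.78 and ZT13.23 in the wild type and at ZT11.15 and ZT10.64 in the mutant, a mean of 2.10 h earlier, the largest shift to an earlier time among the members. The amplitudes were 1.33 and 1.89 in wild-type and 1.16 and 1.24 in mutant series.

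The other is gol (goliath; 2R, 25072627 to 25084347), a RING-type E3 ubiquitin ligase of the endosome. In wild-type replicate 1 it ran through 163, 203, 375, 649, 416 and 210 CPM and in replicate 2 through 96.8, 212, 557, 673, 395 and 264 CPM. In mutant replicate 1 the course was 170, 281, 633, 602, 377 and 218 CPM and in replicate 2 it was 208, 349, 796, 674, 415 and 237 CPM. Both mutant libraries exceeded both wild-type ones at ZT2, ZT6 and ZT10, and from ZT14 to ZT22 the genotypes overlapped. The highest mean moved from ZT14 (661 CPM) in the wild type to ZT10 (715 CPM) in the mutant. Fitted peaks were ZT14.23 and ZT13.85 against ZT12.73 and ZT12.29, and the amplitude was 0.98 and 1.26 against 0.99 and 1.00.

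**Figure D1:**
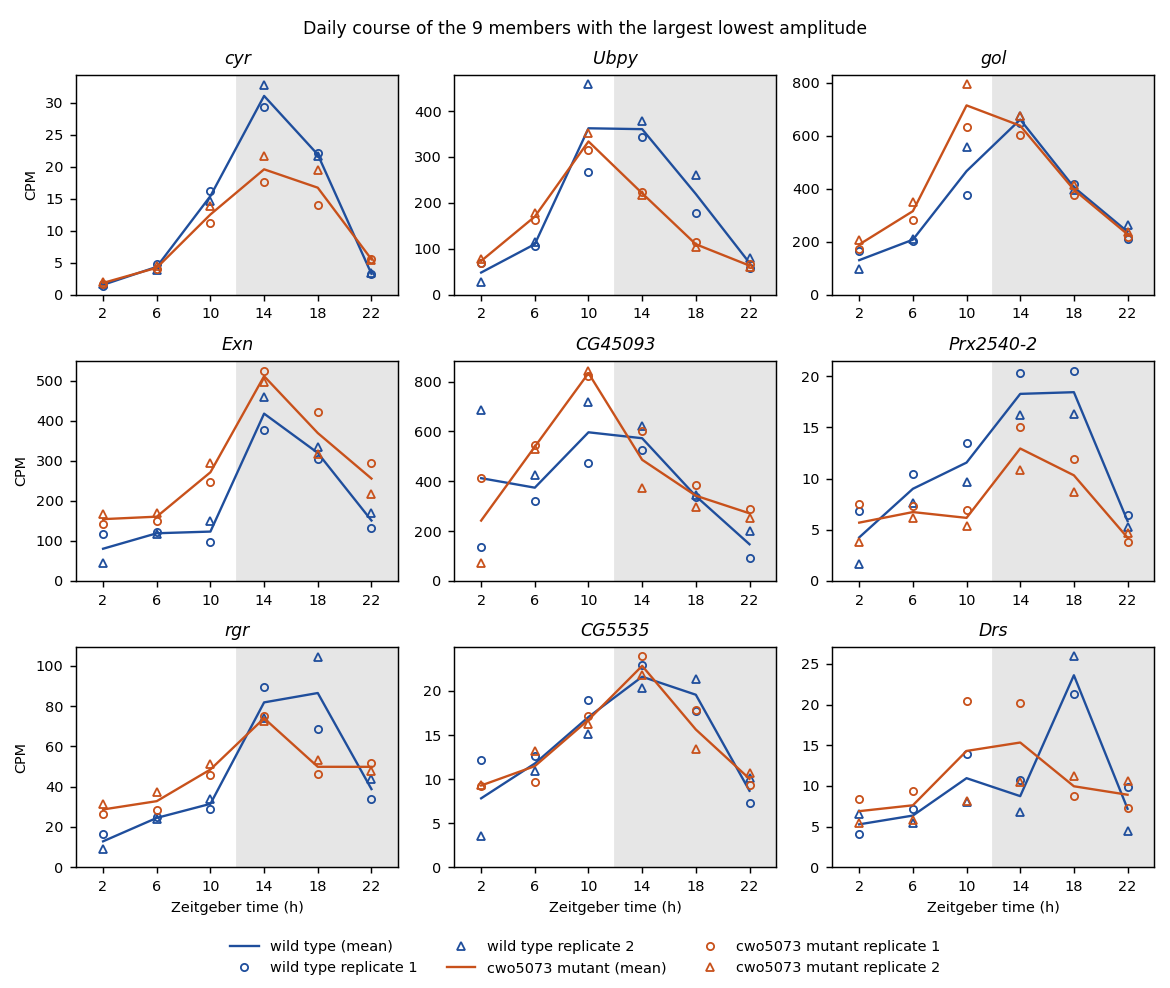
Level in CPM (vertical axis, linear, from 0) against zeitgeber time in hours for the 9 members with the largest lowest amplitude; points are single libraries, lines join the means of 2 replicates, blue is wild type, orange is the cwo5073 mutant and grey marks darkness. Each gene is highest between ZT10 and ZT18 in both genotypes, and Ubpy and gol have their highest mutant mean at ZT10, at 334 and 715 CPM. The highest wild-type mean is also at ZT10 for Ubpy (362.5 CPM) and at ZT14 for gol (661 CPM).

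The daily swing of Ubpy was larger in 1 of its 2 transcripts. The submitters' transcript tables divide the gene into a form of 1546 nt with 4 exons (3R, 21136482 to 21138214) and a form of 3204 nt with 8 exons that spans the gene, in FPKM, a level scaled by transcript length and library size. The short form stood at 4.43, 23.3, 141, 168, 82.1 and 27.9 FPKM in wild-type replicate 1 and at 15.2, 32.8, 231, 198, 126 and 25.2 FPKM in replicate 2. The mutant values were 10.6, 68.0, 155, 104, 42.3 and 7.74 FPKM and 15.1, 62.6, 184, 103, 27.2 and 9.42 FPKM. At ZT6 both mutant libraries lay above, and at ZT14, ZT18 and ZT22 below, both wild-type libraries. The long form stayed between 12.96 and 21.99 FPKM in all 12 mutant libraries. In the wild type the long form spanned 0.391 to 22.9 FPKM, the lowest being in the ZT2 library that was low for long transcripts. The log2 amplitude of the short form was 2.34 and 2.08 in wild-type and 2.16 and 2.08 in mutant series, while that of the long form was 0.58 and 1.37 in the wild type, with peaks at ZT9.28 and ZT13.22, and 0.12 and 0.16 in the mutant.

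**Figure D2:**
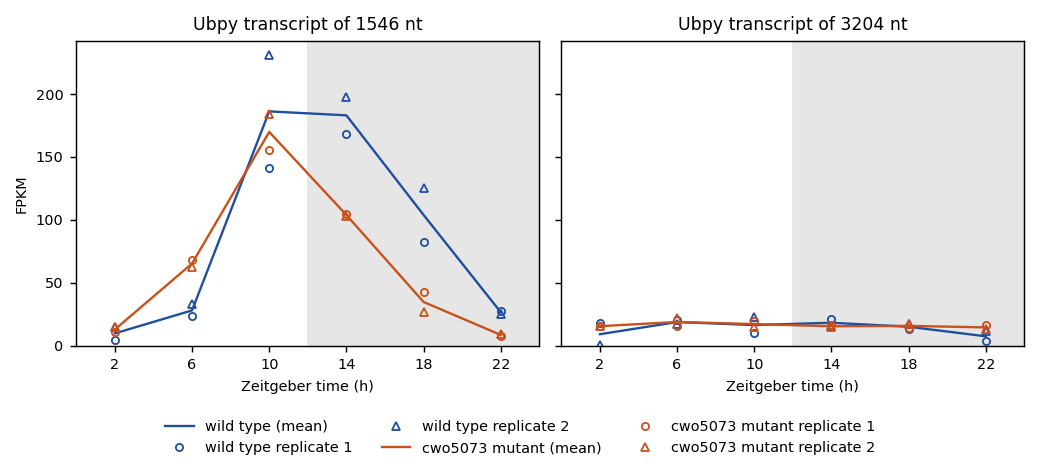
FPKM (vertical axis, linear, from 0) of the 2 annotated Ubpy transcripts against zeitgeber time in hours; points are single libraries, lines join means of 2 replicates, blue is wild type, orange is mutant and grey marks darkness. The 1546 nt form reaches 231 FPKM at ZT10 while the 3204 nt form stays under 23 FPKM in every library.

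Other members also differed between their transcripts. Over the 24 genes, 43 transcripts had a mean of at least 1 FPKM, and 21 of these met the amplitude and the window in all 4 series. Of the 11 members with more than 1 such transcript, 7 had both a transcript that met them and one that did not, and rgr alone had every one of them meet the rule. In 6 members, Exn, MESR3, Cyp18a1, Gp210, CG2556 and CG7365, no single transcript met it in all 4 series, although the gene did. CG2556 has only 1 annotated transcript, so its miss is no difference between transcripts. Its amplitude in mutant replicate 2 was 0.391 on log2(FPKM + 1) for the transcript and 0.424 on log2(CPM + 1) for the gene. Transcript and gene amplitudes are thus on unlike scales. For gol, 3 of 4 transcripts met it, led by the 2520 nt form at a mean of 92.3 ± 60.2 FPKM (SD over 12 wild-type libraries) and 113 ± 66.8 FPKM in the mutant. The division of reads among transcripts is an estimate by the submitters' software, and transcripts listed at exactly 0 in some libraries, such as the 3396 nt form of CG8468 in both wild-type ZT22 libraries, may be failed estimates.

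Signalling and nuclear members came next. Exn (Ephexin, 3L), a signalling protein that acts at synapses, held 117, 122, 96.3, 377, 304 and 132 CPM in wild-type replicate 1 and 43.9, 116, 150, 458, 336 and 170 CPM in replicate 2. Mutant replicate 1 held 143, 151, 247, 525, 422 and 293 CPM and mutant replicate 2 held 166, 170, 295, 497, 316 and 218 CPM. Its mutant libraries exceeded both wild-type ones at ZT2, ZT6, ZT10, ZT14 and ZT22, and overlapped them at ZT18. Dyrk2 (2L), a dual-specificity kinase, spanned 140 to 227 CPM from ZT10 to ZT18 and 33.2 to 136 CPM from ZT22 to ZT6 in the wild type. In the mutant those ranges were 128 to 267 and 127 to 170 CPM, so that dusk and dawn libraries of Dyrk2 overlapped there. Gp210 (2R), a membrane glycoprotein of the nuclear pore, showed the opposite arrangement, with overlapping wild-type ranges of 26.4 to 54.1 and 14.7 to 41.5 CPM and separate mutant ranges of 45.8 to 62.7 and 23.9 to 39.2 CPM. Hil (hillarin, 2R), which carries a transglutaminase-like domain, peaked at ZT14 in both genotypes, at 82.1 CPM in the wild type and 83.2 CPM in the mutant.

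A further 4 members act in redox defence. Peroxiredoxins reduce peroxides, and Prx2540-2, Prx2540-1 and CG12896 were summed because their reads may be shared. The sum was 14.6, 19.5, 25.1, 37.5, 36.4 and 12.1 CPM in wild-type replicate 1 and 3.43, 15.3, 18.2, 31.5, 29.1 and 8.50 CPM in replicate 2. Mutant values were 19.6, 19.1, 20.2, 36.6, 29.2 and 10.2 CPM and 11.3, 14.9, 15.1, 28.1, 24.5 and 13.4 CPM. The sum was highest at ZT14 in every series, and the low wild-type ZT2 value of replicate 2 is from a library that stands apart. Its amplitude was 0.74 and 1.28 in the wild type and 0.55 and 0.57 in the mutant, with peaks from ZT13.34 to ZT14.99. The mean level over the 12 libraries was 20.9 CPM in the wild type and 20.2 CPM in the mutant.

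Gclm (3R) is the modifier subunit of glutamate-cysteine ligase, which makes the first step of glutathione synthesis. Gclm had earlier fitted peaks, at ZT12.66 and ZT9.19 in the wild type and at ZT10.96 and ZT10.28 in the mutant. It held 63.5, 67.2, 125, 125, 74.0 and 74.9 CPM in wild-type replicate 1 and 52.8, 61.1, 126, 173, 10.5 and 65.4 CPM in replicate 2. Mutant replicate 1 had 99.0, 94.9, 146, 134, 90.9 and 72.0 CPM and replicate 2 had 84.4, 120, 142, 137, 95.6 and 8.88 CPM. The highest mean was at ZT14 in the wild type (149 CPM) and at ZT10 in the mutant (144 CPM). Single libraries at 10.5 CPM (wild-type ZT18 replicate 2) and 8.88 CPM (mutant ZT22 replicate 2) lay far below their partners. The earliest fitted peak of Gclm, ZT9.19, belongs to the series with the first of them. Its largest mutant amplitude, 1.46, belongs to the series with the second.

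Metabolic and transport members were CG5535, CG8468, ImpL3 and Cyp18a1. CG5535 (3L), of the cationic amino acid transporter family, separated dusk from dawn libraries in both genotypes, at 15.1 to 23.0 against 3.51 to 12.6 CPM in the wild type and 13.5 to 23.9 against 9.19 to 13.2 CPM in the mutant. CG8468 (2R), of the monocarboxylate transporter family, spanned 44.8 to 139 CPM at dusk and 12.0 to 38.1 CPM at dawn in the wild type. Its mutant ranges, 55.8 to 96.6 and 41.1 to 63.7 CPM, overlapped, and its mutant to wild-type amplitude ratio was 0.405. ImpL3 (Ldh in RefSeq; 3L), lactate dehydrogenase, reached 133 CPM in wild-type ZT18 replicate 2 against 18.4 CPM in replicate 1, and all its mutant libraries lay between 8.999 and 20.9 CPM. The lowest amplitude ratio of any member, 0.333, is that of ImpL3 and rests in part on that single library. Cyp18a1 (X), a cytochrome P450 that inactivates the steroid hormone ecdysone, had its highest mean at ZT18 in both genotypes, at 35.1 CPM in the wild type and 37.0 CPM in the mutant.

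A pair of members belong to innate immunity. Drs (3L) encodes the antifungal peptide drosomycin and was highest late in the wild type, at 21.3 and 26.0 CPM at ZT18 against 4.04 and 6.51 CPM at ZT2. In mutant replicate 1 it was highest at ZT10 and ZT14 (20.5 and 20.2 CPM) and in mutant replicate 2 at ZT18 (11.2 CPM), so its fitted peaks, ZT11.65 and ZT16.88, are 5.23 h apart between the mutant replicates. The gene dnr1 (2R), an inhibitor of the caspase Dredd in the Imd pathway, had its highest mean at ZT14, at 206 CPM in the wild type and 215 CPM in the mutant, and its lowest at ZT2, at 44.5 and 98.7 CPM.

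No role is given here for CG45093, rgr, MESR3, CG7214, CG2121, CG2556 and CG7365. CG45093 was the most abundant member and also one of the least steady, with 688 CPM in wild-type ZT2 replicate 2 against 137 in replicate 1, and 70.4 CPM in mutant ZT2 replicate 2 against 414 in replicate 1. Summed with CG30497, which shares its locus, it was steadier at ZT2 in the mutant (491 CPM in each replicate). In the wild type the summed ZT2 replicates still differed, at 381.5 and 1009 CPM. The sum had amplitudes of 0.41, 0.58, 0.65 and 0.58 with peaks from ZT9.02 to ZT12.51. On 2R, rgr reached 89.6 and 74.2 CPM at ZT14 in the wild type and 75.3 and 72.8 CPM in the mutant, while its ZT2 libraries held 16.7 and 9.08 against 26.2 and 31.2 CPM. At ZT18 it stood at 68.6 and 105 CPM in the wild type against 46.5 and 53.3 CPM in the mutant. The genotypes of rgr were thus close at ZT14, the wild type was higher at ZT18 and the mutant at ZT2.

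The genes nearest the amplitude minimum show how arbitrary the edge of the set is. Just inside were CG7365, CG2556 and dnr1, with lowest amplitudes of 0.42, 0.42 and 0.43. Just outside were CG2765, CG16825 and Slob, a potassium channel binding protein known as a clock output in heads, with 0.39, 0.39 and 0.38. Among other clock genes, per, tim, vri and cwo met the rule that left them out by name. CG31324 missed it with an amplitude of 0.34 in wild-type replicate 2, and Pdp1, a direct target of CLOCK and CYCLE, missed it with 0.29, 0.33 and 0.27 in 3 of the 4 series.

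Within the 24 genes amplitude was lower in the mutant for most, and the same held for genes at large. Median amplitude was 0.72 and 1.03 in the wild-type and 0.51 and 0.55 in the mutant series. The mean mutant amplitude was below the mean wild-type amplitude in 21 members, with a median ratio of 0.745; over all 8529 genes at the CPM minimum the same was so for 83.7%, with a median ratio of 0.516. Without the pair of wild-type libraries low for long transcripts the members gave 18 of 24 and a median ratio of 0.780, and all genes gave 67.0% and 0.778. Both mutant amplitudes lay below both wild-type amplitudes in 12 members, and the reverse held in none; over all genes the first was so for 43.8%. Without the pair of libraries these were 13 members and 29.9% of all genes. A selection that demands a minimum in the mutant shapes these ratios, so no test is attached. Among the members with the lowest ratios, CG8468 (0.405), rgr (0.453), Hil (0.488) and dnr1 (0.498) joined ImpL3, and MESR3, CG45093, Gp210, CG2121 and Gclm stood at 0.976 to 1.24. Without the pair of libraries the ratio was 0.475 for CG8468, 0.531 for rgr, 0.335 for ImpL3, 0.650 for dnr1 and 0.80 for Hil, whose amplitude in wild-type replicate 2 fell from 1.34 to 0.62. The ratio of MESR3 was then 1.46.

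**Figure D3:**
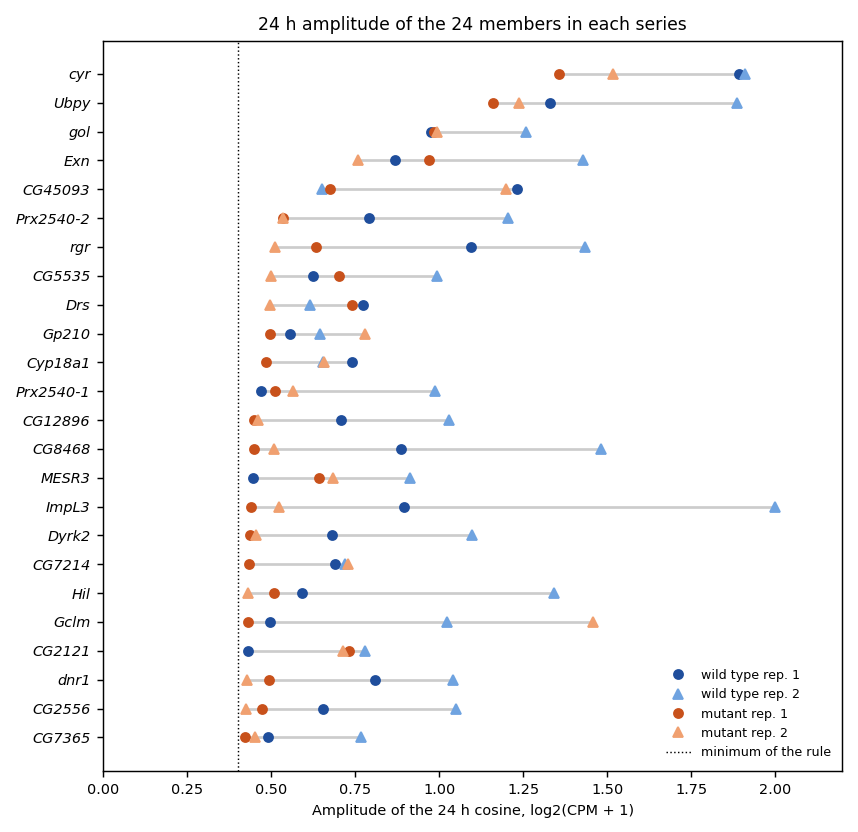
Amplitude of the 24 h cosine on log2(CPM + 1) (horizontal axis, from 0) for the 24 members, 1 line each, ordered by the lowest of the 4 values; blue points are the wild-type and orange points the mutant series, circles replicate 1 and triangles replicate 2, and the dotted line is the minimum of 0.4 used for selection. Wild-type replicate 2, the series with the unusual ZT2 library, has a higher amplitude than wild-type replicate 1 in 21 of 24 genes.

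Most members peaked at close to the same time in both genotypes. The median difference of the mean fitted peak, mutant minus wild type, was 0.02 h; 16 members lay within 1 h and 23 within 2 h. Differences ran from 2.10 h earlier in the mutant for Ubpy, then CG8468 (2.00 h), Drs (1.75 h) and gol (1.53 h), to 1.74 h later for CG7214. For Ubpy and gol the mutant and wild-type peaks did not overlap. The same held for CG8468, rgr, Gp210 and CG7365, also earlier in the mutant, and for cyr, MESR3, CG2556 and CG2121, later in the mutant. Some gaps were small, such as ZT15.69 in the wild type against ZT15.54 in the mutant for rgr, and ZT10.85 against ZT10.90 for CG2121. Each genotype has only 2 peaks per gene and the share over all genes was not counted. No shift is concluded from the lack of overlap. For CG8468 (mutant ZT14.38 and ZT11.41), Drs and CG7214 (wild type ZT14.80 and ZT9.67) the replicates of a genotype were further apart than genotype means. Sampling every 4 h limits all of these values. The rule also asked for a peak from ZT9 to under ZT17 in all 4 series. A gene that moved out of that window in the mutant could not be a member, so selection favours small differences. In the wild type 3 members had their highest mean at ZT10, 15 at ZT14 and 6 at ZT18, and in the mutant 7, 15 and 2. Every library from ZT10 to ZT18 exceeded every library from ZT22 to ZT6 in 10 members in the wild type and 6 in the mutant. This was so in both genotypes for 5, namely cyr, gol, CG5535, ImpL3 and CG2556. Selection by peak time and amplitude favours such a separation, and the share over all genes was not counted, so these are descriptions.

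The mean level over the day was not used by the rule, apart from the CPM minimum. It was compared between genotypes with edgeR's quasi-likelihood test on all 11095 genes tested. A single low library at ZT2 or ZT22 can raise a gene's amplitude and lower its mean together, so the comparison is not fully separate from the selection. MESR3, Exn, CG12896, dnr1, CG2556, CG8468, Gp210, Dyrk2, rgr and gol were higher in the mutant at an adjusted p under 0.05, and CG7214 and CG7365 were lower. This is 10 members higher, against 14.1% of all genes, and 2 lower, against 13.9%; in either direction 28% of all genes passed. The median log2 fold change was 0.32 over the 24 members and -0.01 over all genes. Ranges of the 12 mutant and the 12 wild-type libraries overlapped for every member, and the share over all genes was not counted.

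MESR3 rose by 0.71 ± 0.11 on the log2 scale (SE; edgeR's adjusted p 0.000374). It stood between 54.1 and 160 CPM in the mutant and between 16.1 and 95.2 CPM in the wild type, and the mutant mean was higher at 6 of 6 times. Exn rose by 0.69 ± 0.11 (adjusted p 0.000506, edgeR), also at 6 of 6 times. CG2556 rose by 0.52 ± 0.08 (adjusted p 0.000493, edgeR), dnr1 by 0.55 ± 0.09 (adjusted p 0.000812, edgeR) and Gp210 by 0.44 ± 0.09 (adjusted p 0.00311, edgeR), each at 6 of 6 times. For dnr1 the ZT14 means were close, 206 and 215 CPM, and the ZT2 means were not, 44.5 and 98.7 CPM. That wild-type mean holds 61.7 CPM in replicate 1 and 27.2 CPM in the replicate 2 library that stands apart. The same was seen for rgr, whose mean CPM over 12 libraries hardly differed (46.0 ± 30.7 SD in the wild type and 47.3 ± 15.6 in the mutant), while its fold change, which averages log values, was 0.32 ± 0.08 (adjusted p 0.0110, edgeR). Fold changes of gol, 0.32 ± 0.07, Dyrk2, 0.41 ± 0.11, and CG8468, 0.45 ± 0.13, passed with the mutant mean higher at 3, 4 and 4 of 6 times.

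CG7365 (3L) was lower in the mutant at all 6 times, at a log2 value of -0.75 ± 0.06 (adjusted p 7.19e-07, edgeR). At ZT18 it held 34.5 and 36.3 CPM in the wild type and 14.8 and 18.7 CPM in the mutant, and at ZT14 it held 31.9 and 44.8 against 21.4 and 19.6 CPM. CG7214 (2L), also lower at all 6 times, stood at a log2 value of -1.78 ± 0.45 (adjusted p 0.0106, edgeR). The replicates of CG7214 disagreed within each genotype: series means were 45.6 and 24.4 CPM in the wild type and 3.55 and 15.4 CPM in the mutant.

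Of the 3 peroxiredoxin genes, 1 passed in the fit without a replicate term. CG12896 rose by 0.59 ± 0.17 (adjusted p 0.0182, edgeR), Prx2540-1 gave 0.45 ± 0.18 (adjusted p 0.0675, edgeR) and Prx2540-2 gave -0.39 ± 0.18 (adjusted p 0.106, edgeR). As given above, the division of reads between these near copies is uncertain. Of the members not called, cyr gave -0.02 ± 0.08 and Ubpy -0.06 ± 0.11, the values nearest to 0.

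**Figure D4:**
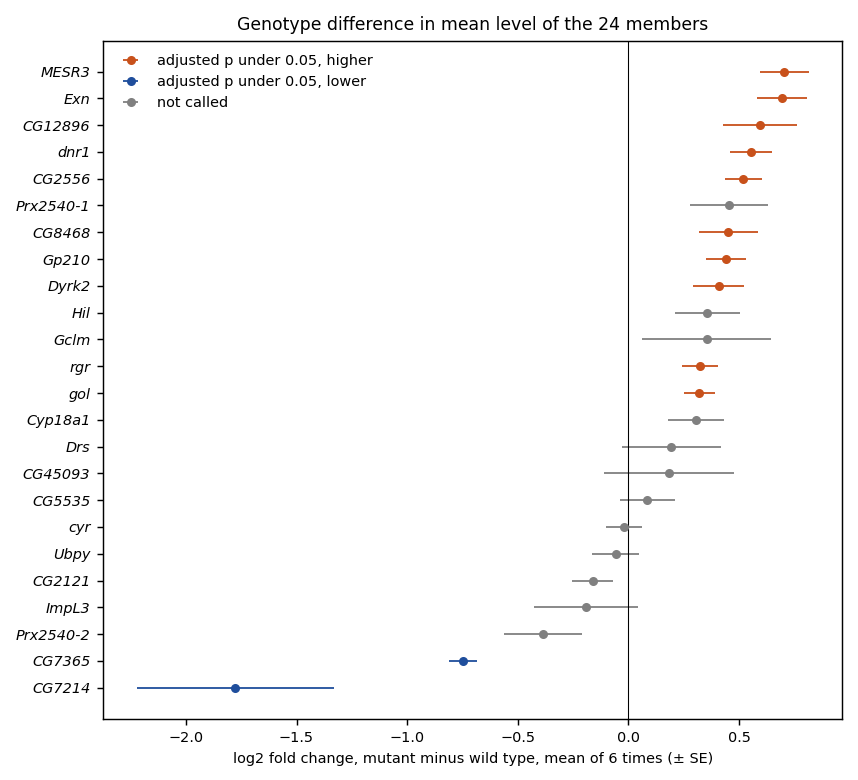
Log2 fold change of the mean level over 6 times, mutant minus wild type (horizontal axis), for the 24 members, with bars of 1 SE from the edgeR fit; orange marks genes higher and blue genes lower at an adjusted p under 0.05, grey the others. The values run from -1.78 for CG7214 to 0.71 for MESR3.

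These calls moved with the library measure described above. With the length score as a covariate, 4 members were higher, 3 of them among the 10, and 1 was lower, when 2.87% of all genes were higher and 2.45% lower. All mutant scores of replicate 1 lay above those of every wild-type library, so the score and the genotype are partly confounded and their parts cannot be told apart. Leaving out both wild-type libraries with the lowest scores gave 11 higher, 9 of them among the 10, and 2 lower. MESR3, CG2556 and CG7365 passed under every one of 36 alternative settings, with log2 fold changes of 0.60 to 0.83, 0.36 to 0.57 and -0.80 to -0.71, while CG8468 lost its call in 11. Among these were the fits that left out wild-type ZT10 replicate 1 or replicate 1 of the mutant at ZT14, ZT18 or ZT22, with log2 fold changes of CG8468 of 0.39 to 0.43. With the length score as a covariate its fold change was 0.07, and 0.03 with a replicate block as well. In the other direction, Cyp18a1 passed without wild-type ZT22 replicate 1 (0.41) or ZT2 replicate 2 (0.41), Prx2540-1 without wild-type ZT2 replicate 1 (0.62) or ZT22 replicate 1 (0.57), Hil without either wild-type ZT2 library (0.55 and 0.26), and Prx2540-2 without wild-type ZT2 replicate 2 (-0.48). Markers of cell types also differed. For fat body, 11 genes summed to 5365 to 35840 CPM in wild-type and to 11250 to 59670 CPM in mutant libraries. Of the 11, 7 were called higher and 1 lower (tobi, -2.19), and Fbp1 was listed at 0 in at least 1 library. The yolk protein genes Yp1, Yp2 and Yp3, at means of 8921, 5051 and 7558 CPM, made up most of that sum. Photoreceptor markers summed to 57410 to 93950 CPM in wild-type and to 90480 to 110800 CPM in mutant libraries, with 7 of 14 higher and 1 lower. Glial markers summed to 1933 to 2648 against 2370 to 2754 CPM, with 5 of 11 higher, and muscle markers to 7214 to 8840 against 5645 to 7078 CPM, with 5 of 10 lower and none higher. Neuronal markers summed to 5147 to 8970 against 5271 to 6714 CPM, with 2 of 10 higher and 1 lower. Over all genes, 14.1% were higher and 13.9% lower in the fit without the length score. The part of any of these marker differences in the members' levels was not tested.

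The shape of the daily course was examined with a harmonic of 12 h, which measures a departure from the 24 h cosine used for selection. Over 6 equally spaced times the 2 terms are estimated separately. A single low library can still move both, so this test too is not fully separate from the selection. By edgeR's quasi-likelihood test none of the 24 members passed, against 0.0721% of all genes (8 of 11095), and none passed by DESeq2 or limma. At an unadjusted p under 0.05 there were 6 members and 721 genes. Cyr had the lowest p of the members (0.00265; adjusted p 0.433, edgeR). Without wild-type ZT2 replicate 1, which leaves the unusual replicate 2 as the only library of that group and assumes that it varies like the others, 5 members passed, but so did 15.3% of all genes.

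A list of genes known as evening outputs of the head clock was set beside the members. Of its 11 genes found in the table under their listed names, Cyp18a1 met the rule; Ubpy is on the list as Usp8. Slob missed it narrowly, as given above, and CG14275 had a wild-type amplitude of 0.27 in replicate 1. Takeout (to), a circadian output linked to feeding, and CG17386 peaked later, at ZT22.05 to ZT23.60 and at ZT19.66 to ZT20.62, outside the window. For the genotype contrast 7 of these 11 genes were higher in the mutant and 1 was lower by the edgeR test, with a median log2 fold change of 0.69. Of 19 core clock genes, 6 were higher and none lower, with a median of 0.08. The 6 include cwo itself, the mutated gene, at 2.44 ± 0.07. Clk gave 0.65 ± 0.11, CG31324 0.57 ± 0.08, vri 0.49 ± 0.16, tim 0.46 ± 0.10 and tws 0.21 ± 0.07. A value of 0.16 ± 0.12 for per was not called. By the same test, 14.1% of all genes were higher and 13.9% lower.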

How the data were processed

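Poly(A) RNA of fly heads was sequenced as 75 nt single-end reads with a directional kit, per the labels' protocols. Per the submitters' processing notes, the build was dm6 and the tools were STAR 2.6.1d, StringTie and DESeq2, with no roles stated. The authors deposited a gene table of expected counts (whole numbers, not normalized), a gene table of FPKM for 8489 genes and, per the file headers, 24 transcript tables with coverage (a signal per base) and FPKM. For 16679 of 16721 genes compared, the deposited count lay within 1, in every library, of coverage times transcript length divided by 75 and rounded up, so the counts are estimates.

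CPM is the count scaled to the library total. Members and gene lists were chosen with earlier results of these data known. The named genes are the 20 members with the largest lowest amplitude, members in a list, the 10 highest and 10 lowest called fold changes, and the 3 genes nearest each side of the amplitude minimum. Counts were tested with edgeR 4.0.16 (TMM, filterByExpr, quasi-likelihood test with a factor of 12 groups, no replicate term, Benjamini-Hochberg adjustment, threshold 0.05). The genotype contrast averages the 6 times of each genotype and subtracts wild type from mutant. DESeq2 1.42.0 and limma 3.58.1 served as alternatives in R 4.3.3, and the fits were tested on simulated data. The length score uses genes of at least 50 CPM and sets those of at least 4455 nt against those of at most 1632 nt. The counts of replicates differed beyond sampling noise (chi-square per degree of freedom 32.8 to 295). All 24 members matched RefSeq names. No promoter or protein sequence was used here.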

Additional observations from a re-analysis of the deposited data

How the results depend on the processing

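The genotype calls were recomputed under 36 alternatives. Members higher in the mutant numbered 10 as reported, 6 with library totals only, 6 by limma on log2(FPKM + 1) and on log2(FPKM + 0.1), 4 with the length score as a covariate and 4 with a replicate block and the length score together, an alternative added after the data were seen. Members lower numbered 2 as reported and 1 in both fits with the length score. Leaving out 1 library at a time gave 9 to 12 higher, 2 to 3 lower and 0 to 5 members with a 12 h harmonic. No called fold change turned sign. Across members and settings 36 calls were lost and 17 gained, and 11 members kept their side of the threshold throughout. In 7 members without a call the sign turned. Cyr, at -0.02, gave 0.125 with the length score, 0.116 with the block and the length score, 0.0168 on log2(FPKM + 0.1), 0.0373 without both wild-type libraries low for long transcripts and -0.0757 to 0.036 without 1 library. CG5535, at 0.09, gave -0.0906, -0.0483 and, without both libraries, -0.0242. Hil gave -0.0126 with the block and the length score. Without 1 library Ubpy gave -0.113 to 0.0194, CG45093 -0.132 to 0.517, ImpL3 -0.322 to 0.154 and Gclm -0.0200 to 0.693. Cyp18a1 gained a call in 5 settings and reached 0.69 under the replicate block with the length score. Replicate numbers were not treated as pairing the samples, since not every pair of groups correlated over 0.1: deviations of same-numbered libraries did so in 15 of 15 pairs of mutant groups, 6 of 15 of wild-type groups and 40 of 66 in all. The replicate block gave 11 higher, 3 lower and 0 for the harmonic, the block within each genotype 11, 3 and 0, and as a random effect 7, 2 and 0. Under the block Prx2540-1 (0.47; 0.47 within genotype) passed as higher and Prx2540-2 (-0.38; -0.38) as lower. The rule selected 46 genes at an amplitude minimum of 0.3, 7 at 0.5, 14 with a pseudocount of 5, 16 from the FPKM table and 20 to 26 when 1 library was left out. The cause of these changes was not tested.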
